A study of Mus musculus with 6 samples.

Results

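Phosphorylation of the alpha subunit of translation initiation factor eIF2 is the switch of the integrated stress response. The 6 genes described here encode the enzymes and the substrate of that switch, and all were found by symbol among the 22740 protein-coding genes of the deposited count table. They are the 4 eIF2 alpha kinases Eif2ak1, Eif2ak2, Eif2ak3 and Eif2ak4, the substrate Eif2s1, and Ppp1r15b, the constitutive regulatory subunit of the phosphatase. RNA was sequenced from B16 cells, a mouse melanoma line labelled BRAFV600E-negative (and called B16-F10 in the series text), after 3 days with 1 uM CX-5461 or with the vehicle DMSO. CX-5461 is best known for blocking transcription by RNA polymerase I. Each group had 3 libraries, numbered as replicates. The labels do not say whether these came from separate cultures. The p-values set the difference between groups against the spread between these libraries, and that spread may be only technical.

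As background, eIF2 carries the initiator methionyl-tRNA to the ribosome and is recharged with GTP by the exchange factor eIF2B. When a stress kinase phosphorylates eIF2 alpha, eIF2 becomes an inhibitor of eIF2B, general initiation falls, and a few mRNAs such as that of the transcription factor ATF4 are translated better. Each kinase reads a different signal. HRI (Eif2ak1) is held off by haem and also responds to mitochondrial stress, PKR (Eif2ak2) binds double-stranded RNA and is itself induced by interferon, PERK (Eif2ak3) senses unfolded protein in the endoplasmic reticulum, and GCN2 (Eif2ak4) responds to uncharged tRNA and stalled ribosomes. Protein phosphatase 1 (PP1) removes the phosphate when it is bound to CReP (Ppp1r15b), which is made constitutively, or to GADD34 (Ppp1r15a), which ATF4 induces. Kinase activity and eIF2 alpha phosphorylation are set after transcription and were not measured here; the data are transcript levels.

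The site on which the 4 kinases act is shown because it ties the members together. In the Eif2s1 transcript of GENCODE M21 it is codon 52, counted from the initiator methionine, which is serine 51 in the usual numbering without that methionine. The codon lies in exon 2 of 8, on chromosome 12 (chr12:78866656-78866706, GRCm38, plus strand, for the stretch shown), and is in capitals with 24 coding bases on either side.
Eif2s1 serine codon: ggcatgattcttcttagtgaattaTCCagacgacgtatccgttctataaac

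A pair of promoter windows of RefSeq (build GRCm38.p6, 250 bases before to 50 after the start) are shown because these were the ones among the members that held the core letters of an interferon-stimulated response element (GAAA, any 2 bases, then GAAA), searched on both strands and in capitals below. Windows were found for 5 of the 6 members, the exception being Ppp1r15b, and Eif2ak4 had more than 1. The Eif2ak2 window is chr17:78882523-78882822 on the minus strand and its match begins 18 bases after the first base of the transcript. The Eif2s1 window is chr12:78861822-78862121 on the plus strand and its match begins 212 bases before the RefSeq start. In GENCODE M21 the gene begins at 78861819, so the whole window, with its match, lies inside the gene in that annotation.
Eif2ak2 promoter: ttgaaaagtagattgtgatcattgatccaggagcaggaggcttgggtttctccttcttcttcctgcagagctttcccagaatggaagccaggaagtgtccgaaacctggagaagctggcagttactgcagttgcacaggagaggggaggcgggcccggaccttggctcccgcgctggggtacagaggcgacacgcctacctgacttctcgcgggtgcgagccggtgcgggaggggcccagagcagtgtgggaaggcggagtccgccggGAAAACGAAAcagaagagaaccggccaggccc
Eif2s1 promoter: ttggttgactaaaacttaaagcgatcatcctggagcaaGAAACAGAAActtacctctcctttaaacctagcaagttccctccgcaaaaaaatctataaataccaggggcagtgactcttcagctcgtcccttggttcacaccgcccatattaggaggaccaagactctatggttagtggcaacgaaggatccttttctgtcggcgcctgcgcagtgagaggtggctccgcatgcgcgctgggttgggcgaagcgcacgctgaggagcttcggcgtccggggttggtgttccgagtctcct
These letters occur in 3.44% of all 32851 promoter windows. The core of the C/EBP-ATF response element through which ATF4 acts, TGATGNAA, occurs in 3.97% of windows, and the cyclic AMP response element TGACGTCA in 1.79%. Neither was present in a window of the 5 members. A match is a description of the letters alone, and the genes with an interferon-element match moved in opposite directions.

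With CX-5461 the transcripts of the members moved in different directions. PKR (Eif2ak2) rose 1.64-fold and HRI (Eif2ak1) 1.21-fold, whereas CReP (Ppp1r15b) fell 1.78-fold, GCN2 (Eif2ak4) by 21.1% and the substrate Eif2s1 by 20.1%. The Eif2ak1 call was lost with an offset for gene span (log2 change 0.04, against 0.27 without it), and the Eif2s1 change was smaller with an offset for GC content (-0.14, against -0.32 without it). PERK (Eif2ak3) did not pass the test. The test was edgeR's quasi-likelihood test over all 12198 genes with enough counts, with Benjamini-Hochberg adjustment and a threshold of 0.05. All 6 members passed the filter on low counts and were tested. Of them 5 were called in either direction, where 73.7% of all tested genes were; 2 were called higher, where 37.2% of all tested genes were, and 3 lower, where 36.5% were. In 5 of the 6 the libraries of the groups did not overlap, as in 76.2% of all tested genes. Changes were thus about as common among the members as among all genes, for which the median log2 change was -0.005 and the quartiles were -0.34 and 0.44. The median of the 6 members was -0.15. TMM scaling, which holds the median of all genes near 0, lets only changes relative to other genes be seen.

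**Figure D1:**
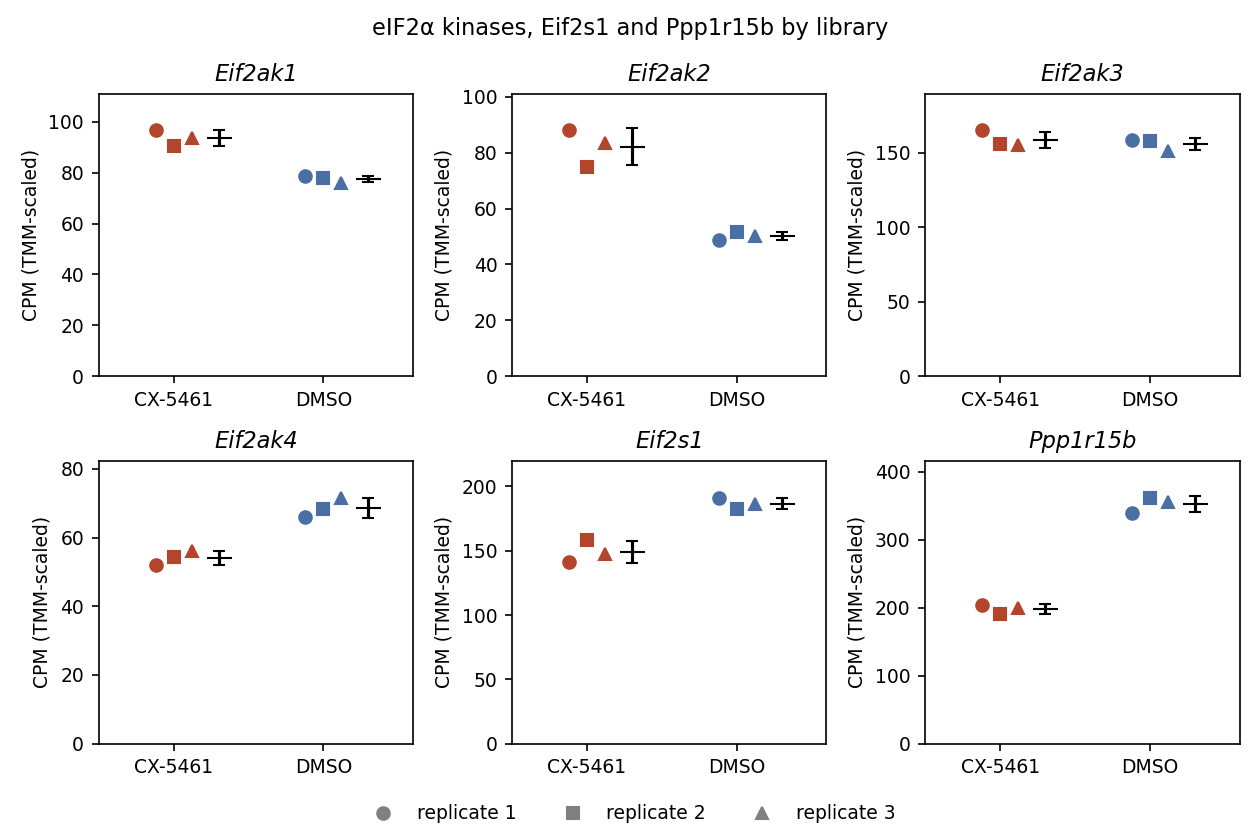
Level in CPM (counts scaled to library size with TMM factors) of the 6 genes in each library, CX-5461 left of DMSO in every panel, with replicates as separate symbols and the mean ± SD (n = 3) beside them in black. Eif2ak1 and Eif2ak2 lay higher in all CX-5461 libraries, Eif2ak4, Eif2s1 and Ppp1r15b lower, and the groups overlapped for Eif2ak3.

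The libraries held 17877481 to 22908309 counts in the CX-5461 group and 17573990 to 20198979 in the DMSO group. The members were well counted: their lowest count was 890 and their highest 7490, so that the counting error of a single value was at most 3.35%. Genes of the melanocyte lineage, fixed as markers of the line, were abundant, with a summed level of 27739 to 29616 CPM in CX-5461 libraries and 22782 to 23363 CPM in DMSO libraries, whereas the summed level of 4 endothelial and 4 keratinocyte markers stayed at or below 0.347 and 2.63 CPM. The leukocyte genes Ptprc, Cd3e and Itgam had at most 0.0559 CPM in any library, and Cd68 made up nearly all of the 10.7 to 13.3 CPM of the leukocyte list. Of the 5 fibroblast markers, whose summed level was 30.3 to 33.4 CPM with CX-5461 and 12.7 to 17.0 CPM with DMSO, Col1a2 was higher with CX-5461 (23.3 to 25.6 CPM, against 1.73 to 2.85 CPM with DMSO) and Col1a1 lower (2.35 to 3.08 CPM, against 5.18 to 8.12 CPM with DMSO), Pdgfra overlapped between the groups, and Dcn and Lum stayed at or below 0.131 CPM. On the second principal component, with 2.83% of the variance, CX-5461 replicate 2 scored -15.5 where the other CX-5461 libraries scored 8.49 and 6.91. Mitochondrial transcripts made up 2.70% to 3.40% of all counts with CX-5461 and 1.70% to 1.84% with DMSO. The part of these differences in the values below was not tested. Whether fewer cells with a transcript or less of it per cell underlies a lower value cannot be told apart in bulk RNA.

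Eif2ak2, the double-stranded RNA kinase PKR, lies on chromosome 17 (78852564 to 78882573, minus strand, a span of 30.01 kb with 16 exon blocks). It had 88.0, 74.96 and 83.6 CPM in CX-5461 replicates 1, 2 and 3, against 48.6, 51.5 and 50.2 CPM in DMSO replicates 1, 2 and 3. All CX-5461 libraries lay above all DMSO libraries, and CX-5461 replicate 2 was the lowest of its group. The log2 change was 0.72 ± 0.06 (SE, n = 3 per group, edgeR adjusted p = 4.39e-08), a larger value than 83.0% of tested genes had. It was 0.77 without CX-5461 replicate 2 and lay between 0.64 and 0.80 under all 21 alternatives. Spread between replicates was wider with CX-5461 (a coefficient of variation of 8.05%) than with DMSO (2.82%). Gm26637, a long noncoding RNA on the opposite strand, shares 174 exonic bases with Eif2ak2, or 3.4% of its exonic length, and was not analysed here.

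Eif2ak1, the haem-regulated kinase HRI, lies on chromosome 5 (143817788 to 143904251, plus strand, 86.46 kb, 15 exon blocks). Its values were 96.7, 90.6 and 93.7 CPM in the CX-5461 replicates and 78.6, 78.1 and 76.2 CPM in the DMSO replicates. The groups did not overlap, with all CX-5461 libraries higher. The log2 change was 0.27 ± 0.05 (edgeR adjusted p = 0.000115). Among the members this was the call that depended on how gene length in the genome was treated: once an offset took up the trend with gene span the value was 0.04 (edgeR adjusted p = 0.389; 7.25e-06 to 0.456 over alternatives). Long genes were higher as a class in these data, with a median log2 change of 0.21 for the 1317 tested genes of 80 to 160 kb and of 0.94 for the 777 longer ones, against -0.09 for the 2679 of 20 to 40 kb. Aimp2, a scaffold protein of the tRNA synthetase complex on the opposite strand, shares 487 exonic bases with Eif2ak1, or 8.59% of its exonic length. Aimp2 had 581, 499 and 522 counts in the CX-5461 replicates and 429, 462 and 393 in the DMSO replicates, and it rose by 0.26 ± 0.07 (edgeR adjusted p = 0.00395). Strand use in the counting is not given in the sources used here, so reads of this stretch cannot be assigned with certainty.

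Eif2ak4, the amino acid sensor GCN2, lies on chromosome 2 (118388618 to 118475234, plus strand) and spans 86.62 kb with 41 exon blocks, nearly the same length of genome as Eif2ak1. It had 51.98, 54.3 and 56.1 CPM in the CX-5461 replicates, against 66.0, 68.2 and 71.5 CPM in the DMSO replicates. Every CX-5461 library was below every DMSO library. The log2 change was -0.34 ± 0.05 (edgeR adjusted p = 3.71e-05), and with the gene-span offset it was -0.57. Of the tested genes of 80 to 160 kb, 21.2% were called lower, against 36.5% of all tested genes.

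Eif2ak3, the endoplasmic reticulum kinase PERK, lies on chromosome 6 (70844515 to 70905245, plus strand, 60.73 kb, 19 exon blocks). Its values were 164.9, 155.8 and 155.4 CPM in the CX-5461 replicates and 158.3, 158.0 and 150.8 CPM in the DMSO replicates. The groups overlapped, with CX-5461 replicates 2 and 3 below DMSO replicates 1 and 2. The log2 change was 0.03 ± 0.05 (edgeR adjusted p = 0.601), with a 95% interval from -0.07 to 0.12. Its sign turned under 6 alternatives, among them the GC offset (-0.02) and the gene-span offset (-0.08). Gm43292, a transcript awaiting experimental support on the opposite strand, shares 485 exonic bases with Eif2ak3. That is 8.05% of the exonic length of Eif2ak3, and Gm43292 was not analysed here.

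**Figure D2:**
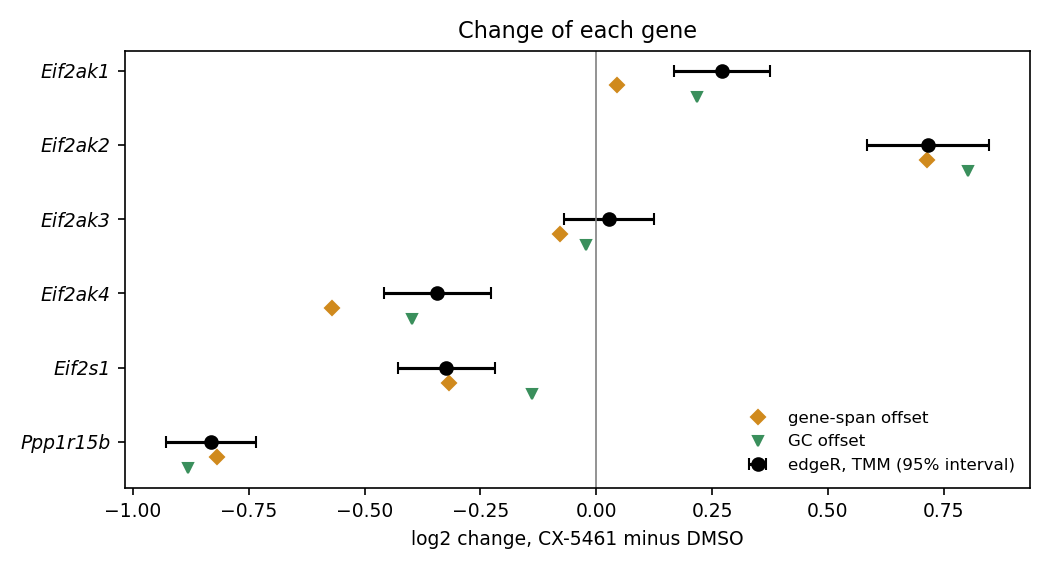
Log2 change (CX-5461 minus DMSO) of the 6 genes from edgeR with TMM factors, as black points with 95% intervals (n = 3 per group), with the value under the gene-span offset as diamonds and under the GC offset as triangles. Eif2ak1 lay at 0.04 with the gene-span offset and at 0.27 without it, and Eif2s1 at -0.14 with the GC offset and at -0.32 without it, while Eif2ak2 and Ppp1r15b stayed between 0.71 and 0.80 and between -0.88 and -0.82 in the values drawn.

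Because the kinases moved apart, their mix changed. On a per-length scale (RPKM, CPM divided by the exonic length in kb) the 4 kinases together summed to 68.6, 63.8 and 66.2 RPKM in the CX-5461 replicates and to 58.5, 59.2 and 57.9 RPKM in the DMSO replicates, without overlap. PKR took 25.1%, 23.0% and 24.7% of that sum with CX-5461, against 16.3%, 17.0% and 16.9% with DMSO. GCN2 took 10.2%, 11.4% and 11.4% with CX-5461, against 15.1%, 15.4% and 16.6% with DMSO. HRI held 24.96% ± 0.0921 with CX-5461 and 23.4% ± 0.258 with DMSO, and PERK, the most abundant of the kinases in every library, 39.8% ± 0.792 and 44.2% ± 0.840 (SD, n = 3 per group). The ratio of PKR to GCN2 was 2.47, 2.02 and 2.17 in the CX-5461 replicates and 1.07, 1.10 and 1.02 in the DMSO replicates. In an exact two-sided permutation test each of these shares and ratios gave p = 0.10, which is the smallest that 3 against 3 libraries allow. The summed kinase level per unit of Eif2s1 was 2.40, 1.99 and 2.22 with CX-5461 and 1.52, 1.61 and 1.54 with DMSO, again with an exact permutation p = 0.10.

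**Figure D3:**
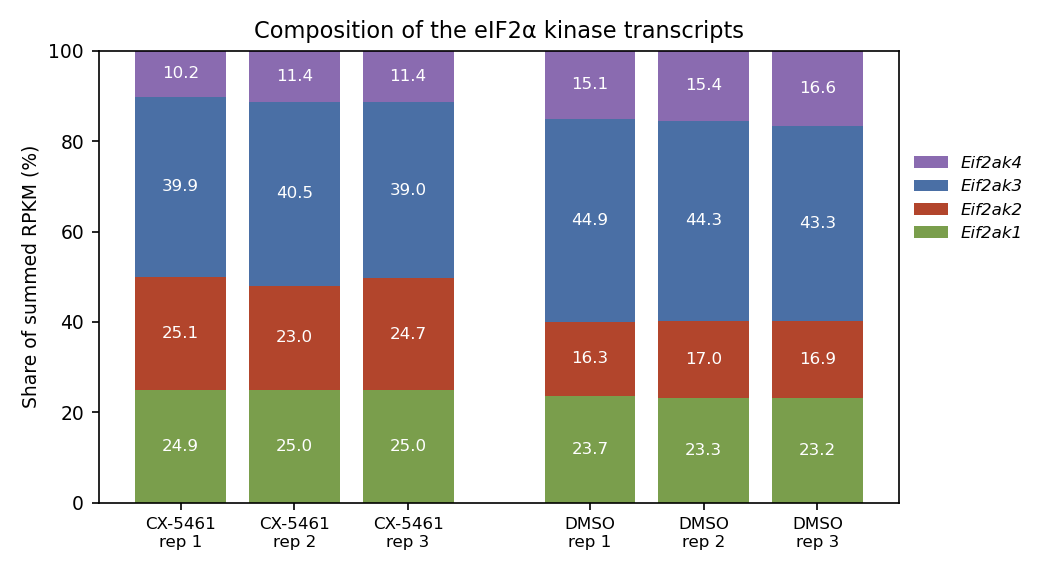
Share of each kinase transcript in the summed RPKM of the 4 kinases, in percent, stacked for each library, with the CX-5461 replicates left of the DMSO replicates. The Eif2ak2 share was 23.0% to 25.1% with CX-5461 and 16.3% to 17.0% with DMSO, and the Eif2ak4 share 10.2% to 11.4% and 15.1% to 16.6%.

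Eif2s1, the substrate, lies on chromosome 12 (78861819 to 78887010, plus strand, 25.19 kb, 8 exon blocks). It had 141.4, 158.3 and 147.9 CPM in the CX-5461 replicates, against 191.1, 182.5 and 186.1 CPM in the DMSO replicates. The groups did not overlap, and CX-5461 replicate 2 was the highest of its group. The log2 change was -0.32 ± 0.05 (edgeR adjusted p = 2.36e-05). Eif2s1 is the member with the lowest GC content, 40.8% in its longest transcript, and with an offset for GC the change was -0.14 (edgeR adjusted p = 0.0258; 1.90e-08 to 0.0258 over alternatives).

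Ppp1r15b, which encodes the constitutive phosphatase subunit CReP, lies on chromosome 1 (133131143 to 133139783, plus strand). With 2 exon blocks over 8.64 kb it is the shortest member. It had 204.3, 190.4 and 198.8 CPM in the CX-5461 replicates and 339.1, 361.5 and 355.5 CPM in the DMSO replicates. No CX-5461 library came near a DMSO library, and the spread within groups was 3.54% with CX-5461 and 3.30% with DMSO. The log2 change was -0.83 ± 0.05 (edgeR adjusted p = 2.24e-10), between -0.90 and -0.81 under all 21 alternatives, and 6.10% of tested genes had a change as low or lower. This was the largest change among the members. On the opposite strand a transcript awaiting experimental support, Gm26616, shares 640 exonic bases with it, or 11.4% of its exonic length, and was not analysed here.

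The inducible counterpart Ppp1r15a fell further, to 57.1, 58.2 and 53.2 CPM in the CX-5461 replicates, against 468.6, 464.8 and 521.7 CPM in the DMSO replicates, a log2 change of -3.11 ± 0.06 (edgeR adjusted p = 2.65e-15). On the per-length scale Ppp1r15b and Ppp1r15a together summed to 54.5 ± 1.28 RPKM with CX-5461 and 228.1 ± 11.4 RPKM with DMSO (SD, n = 3 per group). The share of Ppp1r15b in that pair was 65.3%, 63.2% and 66.2% in the CX-5461 replicates and 27.5%, 29.0% and 26.3% in the DMSO replicates. The more abundant of both subunit transcripts was thus Ppp1r15b in every CX-5461 library and Ppp1r15a in every DMSO library. The exact two-sided permutation test gave p = 0.10, the smallest possible. Ppp1ca and Ppp1cb, which encode catalytic subunits of PP1, had 237.9 ± 8.91 and 212.0 ± 10.7 CPM with CX-5461 and 263.4 ± 4.11 and 231.5 ± 10.7 CPM with DMSO. Ppp1ca fell by 0.15 on the log2 scale (edgeR adjusted p = 0.00664). Ppp1cb passed as lower at -0.13 (edgeR adjusted p = 0.0317), but turned to 0.06 with the GC offset, where it did not pass (edgeR adjusted p = 0.215; 0.000543 to 0.288 over alternatives), and the call was lost when CX-5461 replicate 3 (edgeR adjusted p = 0.118), DMSO replicate 2 (0.0541) or DMSO replicate 3 (0.157) was left out. Ppp1cc did not pass.

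**Figure D4:**
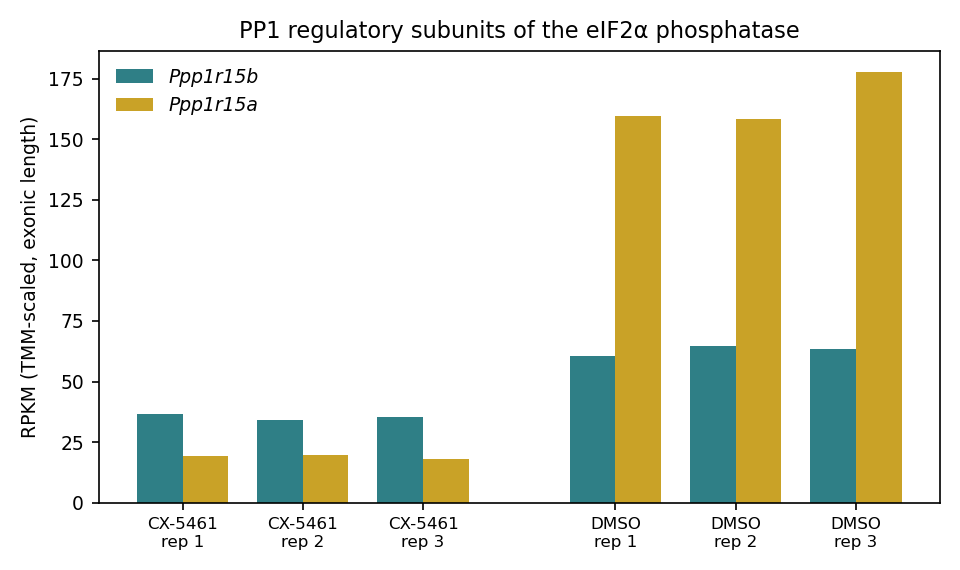
Level per length (RPKM) of the phosphatase subunits Ppp1r15b and Ppp1r15a in each library, CX-5461 left of DMSO. Ppp1r15b stood above Ppp1r15a in the 3 CX-5461 libraries and below it in the 3 DMSO libraries, and both were lower with CX-5461.

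The order of the members' levels per length was Ppp1r15b, Eif2s1, Eif2ak3, Eif2ak1, Eif2ak2, Eif2ak4 in the means of both groups. With CX-5461 these were 35.4 ± 1.25, 30.1 ± 1.72, 26.3 ± 0.891, 16.5 ± 0.542, 16.1 ± 1.29 and 7.25 ± 0.275 RPKM. With DMSO they were 62.9 ± 2.07, 37.7 ± 0.875, 25.8 ± 0.705, 13.7 ± 0.226, 9.79 ± 0.276 and 9.20 ± 0.374 RPKM (SD, n = 3 per group). The neighbours Eif2ak1 and Eif2ak2 did not differ beyond their spread with CX-5461, and Eif2ak2 and Eif2ak4 overlapped with DMSO, where the lowest Eif2ak2 library had 9.51 RPKM and the highest Eif2ak4 library 9.59 RPKM. The order also rests on the length chosen. With the longest transcript in place of all exons, a choice made after seeing the data, Eif2s1 came first with CX-5461, at 43.8 ± 2.50 RPKM, followed by Ppp1r15b at 35.4 and Eif2ak3 at 35.2, and with DMSO Eif2ak4 (12.9 RPKM) stood above Eif2ak2 (11.6 RPKM). The PKR share of the kinase sum was then 22.1% with CX-5461 and 15.1% with DMSO.

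The partners of Eif2s1 were mostly lower. Of 12 genes for the other eIF2 subunits, eIF2B and factors that act on them, 11 were tested, of which 9 fell and 2 rose, where 36.5% and 37.2% of all tested genes did, with a median log2 change of -0.37 (all tested genes -0.005). Over the alternatives 7 to 9 fell. Eif2s2, the beta subunit, fell 1.67-fold, to 138.8 ± 8.91 CPM with CX-5461, against 231.6 ± 6.94 CPM with DMSO. Eif5, the GTPase-activating protein of eIF2, fell 1.57-fold, to 529.7 ± 12.6 CPM, against 833.2 ± 22.3 CPM, and Bzw2, a mimic of eIF5, fell 1.65-fold. In the exchange factor eIF2B, Eif2b4 fell by 0.65 on the log2 scale, and the catalytic subunit Eif2b5 by 0.37 (edgeR adjusted p = 7.27e-08 and 4.62e-06). The 2 that rose, named after their values were seen, were Eif2b1 at 0.25 and the eIF2 assembly factor Cdc123 at 0.36. Eif2s3y, the Y-linked gamma subunit, had too few counts to be tested.

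The genes that turn the kinases on or off showed no common direction. Of 12 tested, 3 rose and 2 fell, 7 missed the threshold, and the median was 0.06. Of all tested genes 73.7% were called in either direction, 37.2% higher and 36.5% lower, so calls were less common in this list. Dnajc3, a co-chaperone also known as P58IPK that inhibits PKR and PERK, rose 1.57-fold, to 365.2 ± 12.8 CPM with CX-5461, against 233.3 ± 10.9 CPM with DMSO (edgeR adjusted p = 6.41e-09). Prkra, which encodes the PKR activator PACT, fell by 0.33 on the log2 scale, to 34.7 ± 2.66 CPM, against 43.4 ± 1.30 CPM. Oma1, the mitochondrial protease upstream of HRI, rose 1.28-fold, to 11.3 ± 0.762 CPM, against 8.82 ± 0.769 CPM, with an edgeR adjusted p between 0.00502 and 0.0496 over alternatives. Dele1, of the same list and named after its values were seen, did not pass, at 0.08 (edgeR adjusted p = 0.285). Rplp0, of the ribosomal stalk that activates GCN2, fell 1.22-fold. The other stalk genes of the list, Rplp1 and Rplp2, were named after their values were seen. They did not pass, at 0.10 and -0.18 (edgeR adjusted p = 0.158 and 0.224), and their groups overlapped. Ribosomal protein genes have processed copies, so these levels are uncertain. Hspa5, the chaperone BiP that holds PERK inactive, had 3761 ± 247.6 CPM with CX-5461 and 3985 ± 181.5 CPM with DMSO (edgeR adjusted p = 0.169). It passed as lower with library totals only, at -0.16 (edgeR adjusted p = 0.0112), with no filter on low counts, at -0.10 (edgeR adjusted p = 0.0452), and without CX-5461 replicate 2, at -0.14 (edgeR adjusted p = 0.00291; up to 0.483 over alternatives). In the last of these 4 genes of the list were lower in place of 2.

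**Figure D5:**
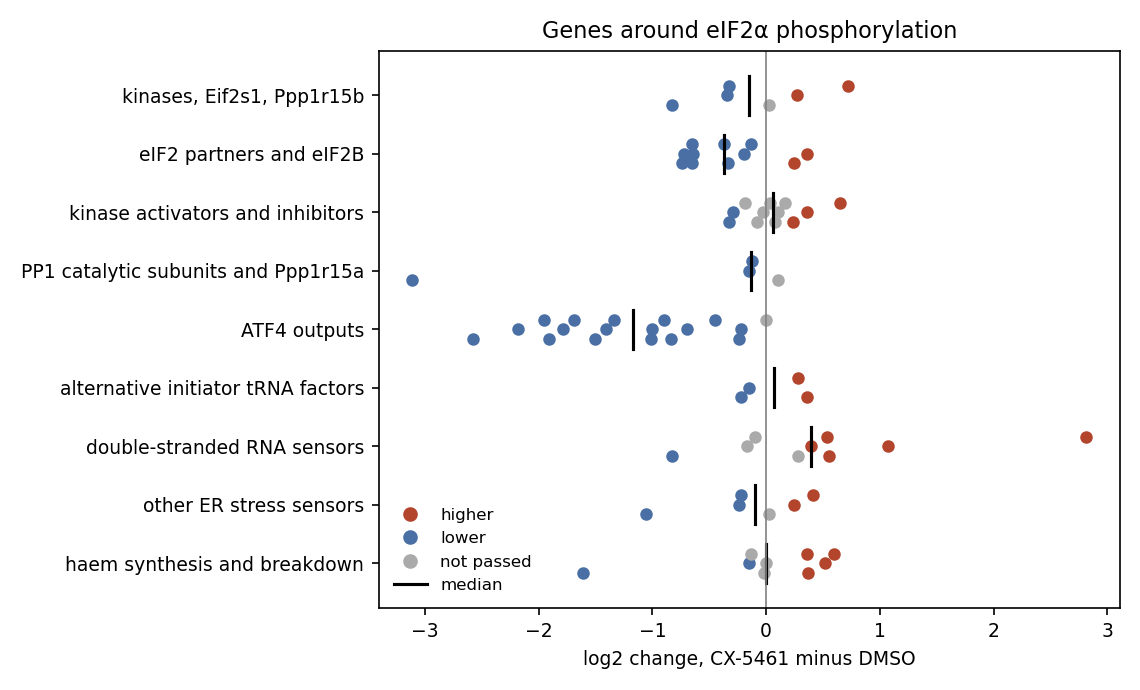
Log2 change (CX-5461 minus DMSO) of each tested gene in the 6 members and in 8 lists of genes around eIF2 alpha phosphorylation, coloured by the edgeR call at an adjusted p below 0.05, with the median of each row as a black bar. The ATF4 outputs (median -1.17) and the eIF2 partners and eIF2B (-0.37) lay mostly below 0, while the genes acting on the kinases lay on both sides.

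PKR is one of several proteins that bind double-stranded RNA. Of 11 genes of such sensors and their effectors in the table, 9 were tested, of which 5 rose and 1 fell (median 0.39), where 37.2% of all tested genes were higher and 36.5% lower. Tlr3, an endosomal sensor, rose 2.10-fold, to 21.8 ± 1.55 CPM with CX-5461, against 10.4 ± 0.956 CPM with DMSO. Oas2, an oligoadenylate synthetase, rose 7.03-fold at a low level, to 3.11 ± 0.753 CPM with CX-5461, against 0.435 ± 0.0834 CPM with DMSO. In the DMSO replicates it had 0.382, 0.531 and 0.391 CPM, so it passed the filter on low counts only through the CX-5461 libraries. Its place among the 5 that rose is therefore not independent of that filter. Oas3 and Zbp1 were left out for low counts. Oas1a rose 1.46-fold, and reads can be shared among its close relatives. Ifih1, the cytosolic sensor MDA5, fell 1.77-fold, to 18.5 ± 1.10 CPM, against 32.8 ± 3.41 CPM. Adar, which edits double-stranded RNA, did not pass (109.8 ± 3.84 CPM with CX-5461 and 117.9 ± 4.30 CPM with DMSO, edgeR adjusted p = 0.0717), though it passed as lower without CX-5461 replicate 1, at -0.14 (edgeR adjusted p = 0.0301; 0.00443 to 0.253 over alternatives), and under 5 other alternatives. The count of lower genes in this list was 2 without CX-5461 replicate 1 and also without CX-5461 replicate 2.

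PERK is one of the stress sensors of the endoplasmic reticulum. The 6 genes of the other branches were sensors, the proteases that process ATF6 and the IRE1 target Xbp1. Of them 2 rose, 3 fell and 1, the sensor gene Atf6b, did not pass (0.02). Among all tested genes 37.2% were higher and 36.5% lower. Ern1, the sensor IRE1 alpha, fell 2.08-fold, to 76.7 ± 10.3 CPM with CX-5461, against 159.8 ± 2.10 CPM with DMSO. Mbtps1, the protease that cleaves ATF6, rose 1.33-fold. Atf6 was called higher, at 0.24, but lower with the gene-span offset, at -0.33 (edgeR adjusted p = 3.31e-06; 1.29e-06 to 0.00842 over alternatives), so its direction rests on that setting. Mbtps2, the second protease for ATF6, was called lower at -0.24 (edgeR adjusted p = 0.0144), and did not pass with the GC offset, at -0.03.

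Haem is what holds HRI inactive. Of 9 genes of haem synthesis and breakdown, 4 rose and 2 fell, near the 37.2% higher and below the 36.5% lower among all tested genes, and the median was 0.003. Uros, which acts in the middle of the synthesis pathway, rose 1.43-fold, and Fech, which inserts the iron, rose 1.29-fold, to 104.3 ± 1.89 CPM with CX-5461, against 80.7 ± 1.52 CPM with DMSO. Hmox1, the haem oxygenase that breaks haem down, fell 3.05-fold, to 1907 ± 100.8 CPM, against 5814 ± 82.9 CPM (edgeR adjusted p = 2.80e-13). The count of lower genes in this list was 1 when CX-5461 replicate 1, DMSO replicate 1 or DMSO replicate 2 was left out.

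Of 4 genes for factors that can deliver initiator tRNA without eIF2 or act with them, Eif2d and Mcts1 rose 1.22-fold and 1.28-fold, and Denr, the partner of Mcts1, fell 1.17-fold. With the GC offset the log2 change of Mcts1 was 0.56, against 0.36 without it. Eif2a, which despite its symbol is not the eIF2 alpha gene, was called lower at -0.15 (edgeR adjusted p = 0.00957) and turned to 0.05 with the GC offset, where it did not pass (edgeR adjusted p = 0.312; 0.000523 to 0.386 over alternatives).

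Downstream, in a list of 18 genes made of Atf4 itself and its outputs, 17 fell and none rose (median -1.17), where 36.5% of all tested genes were lower; Sesn2 was the one that missed the threshold. That this programme was lower was known when the list was drawn up, so its count is not independent evidence. Atf4 had a log2 change of -1.01, Ddit3, which encodes CHOP, of -1.91, the pseudokinase gene Trib3 of -2.18, the glutathione-degrading enzyme gene Chac1 of -1.96, and Atf3 of -2.58.

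By the root mean square difference of log2 CPM over the 6 libraries, each gene centred on its own mean, the most similar patterns to that of Eif2ak2 were those of Slx4ip and Ddx11 (0.028 and 0.031). For Ppp1r15b they were Vps54 and Sbf1 (0.025 and 0.025), for Eif2ak1 Ap3d1 and Eif4g1 (0.009 and 0.012), and for Eif2ak4 Cln6 and Srsf10 (0.021 and 0.022). For Eif2s1 they were Fcgrt and Prkd2 (0.017 and 0.020), and for Eif2ak3 Vamp2 and Terf2 (0.010 and 0.020). Such neighbours are many, since each profile has 6 points in 2 groups: 310 other genes lay within 0.1 of Eif2ak2, 389 of Ppp1r15b, 1325 of Eif2ak1 and 1989 of Eif2ak3.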

How the data were processed

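Per the labels, total RNA of B16 cells was extracted with a column kit. The authors deposited raw counts of reads per protein-coding gene, not normalized, in 1 table with 1 column per library; the builds listed, per the submitters' processing notes, were GRCm38 and mm10. Aligner, counter, annotation and strand setting: not given in the sources used here. Columns were matched to samples by name. Genes were kept by filterByExpr (minimum count 10), and edgeR 4.0.16 (R 4.3.3) with TMM factors and glmQLFTest was fitted to all 6 libraries with the treatment as the term. Log2 changes are CX-5461 minus DMSO, SE the change over the square root of F, and the common biological coefficient of variation was 4.86%. CPM use library totals times TMM factors, RPKM the union of exons of GENCODE M21 (GRCm38), which held 21919 of the 22740 identifiers; marker levels are scaled to library totals only. On simulated counts with 12105 genes tested, each of 4 fold sizes was given to 50 genes. Calls were made for 30 at 1.25-fold, for 46 at 1.5-fold, for 48 at 2-fold and for 49 at 4-fold. Of the 178 calls 5 were false. The simulation gave all genes the common dispersion and changed few genes, whereas 73.7% of tested genes were called in the data. Its rates therefore need not hold for the data.

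The members and lists were chosen with earlier results of these data known. Named genes were the members and, of each of 8 lists, the 4 called genes with the largest change, any gene not called among the 2 most abundant, and Ppp1r15a, Atf4, Ddit3, Eif2b5 and Eif2s2; for each member the 2 genes of most similar pattern were added. Dele1 was matched by identifier. A few genes of these lists are not reported here by name. Alternatives were other scalings (RLE, upper quartile, library totals), filters, DESeq2 1.42.0, limma-voom (limma 3.58.1), the replicate block, GC and gene-span offsets (splines per library), removal of abundant genes, thinning, a stricter threshold and each library left out.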

Additional observations from a re-analysis of the deposited data

How the results depend on the processing

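The counts of 2 members higher and 3 lower held under all alternatives but the gene-span offset, with or without the replicate block, where 1 member was higher, Eif2ak1 falling to 0.04 in both. Eif2ak3, not called, changed sign with library totals only (-0.046), the GC offset (-0.021, and -0.022 with the block), the gene-span offset (-0.078, and -0.077 with the block) and without CX-5461 replicate 1; with each library left out it lay between -0.0074 and 0.037. Other reversals were Ppp1cb (0.058 in both fits) and Eif2a (0.054 in both) with the GC offset and Atf6 (-0.33 in both) with the gene-span offset. The causes were not tested. Over all alternatives eIF2 partners and eIF2B had 7 to 9 lower, and PP1 catalytic subunits with Ppp1r15a 2 to 3. Other ER stress sensors had 2 to 4 lower, haem genes 1 to 3, and kinase activators and inhibitors 1 to 4. The settings of the larger moves, in proportion, were as follows. Kinase activators and inhibitors were lower in 4 with no filter or with the gene-span offset and block, in 1 without the 50 most abundant genes, and higher in 5 with the GC offset and block. Alternative initiator tRNA factors had 1 lower with the GC offset in both fits. Double-stranded RNA sensors had 2 lower with library totals, the GC offset and the gene-span offset, each also with the block where fitted. Other ER stress sensors had 1 higher with the gene-span offset in both fits. Haem genes had 1 lower without the 50 most abundant genes or at a threshold of 0.01. Removing the abundant genes took out Rplp0 and Hspa5 of the kinase list and Hmox1 of the haem list. The lower counts in that fit thus lack Rplp0 and Hmox1 because these were not tested, not because a call was lost. Leaving out 1 library gave 2 to 4 lower kinase regulators, 1 to 2 lower double-stranded RNA sensors and 1 to 2 lower haem genes, with 2 higher and 3 lower members each time. Of 858 values of 41 genes, 828 kept direction and call. Same-numbered libraries did not deviate together (correlations of 0.036, 0.004 and -0.008), so numbers were not taken as pairs; with the replicate block 2 members were higher, 3 lower and 4536 genes higher. Counts of these genes are high enough that depth limits little; Oas2 at under 1 CPM with DMSO is the exception.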
